A study of Homo sapiens with 2 samples.

Results

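The genomic loci of 10 genes of TEAD- and YAP-dependent transcription were examined for chromatin accessibility in untreated B2B cells, out of 20007 protein-coding genes. The genes were listed by name and comprised the TEAD transcription factors TEAD1, TEAD2, TEAD3 and TEAD4, their coactivators YAP1 and WWTR1 (which encodes TAZ), and the target genes CCN1, CCN2, ANKRD1 and AMOTL2. Each locus was taken from 100 kb upstream to 100 kb downstream of the gene. ATAC-seq was used, which reads out open chromatin as DNA into which a transposase can insert sequencing adapters. B2B (BEAS-2B) is an immortalized, non-cancerous line of bronchial epithelial origin. The only group was made up of 2 untreated replicates, which the authors call biological, so the design offers no contrast to test. A single line stands for bronchial epithelium here, and 11 of 12 epithelial marker genes lacked a promoter peak in either replicate, with KRT18 as the exception, whereas 52.3% of all protein-coding genes had a promoter peak in both.

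TEAD proteins bind DNA but activate transcription only weakly by themselves, and rely on YAP and TAZ, which do not bind DNA directly. The Hippo kinases phosphorylate YAP and TAZ and hold them in the cytoplasm, and when this cascade is quiet both enter the nucleus and join TEAD at promoters and enhancers. In epithelial cells this pathway links cell density and mechanical tension to growth, and TEAD and AP-1 are known to occupy many enhancers together. CCN1 and CCN2 encode secreted matricellular proteins, ANKRD1 a nuclear and sarcomeric ankyrin repeat protein, and AMOTL2 an angiomotin-family protein that can bind YAP outside the nucleus.

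The sequences in front of the target genes are shown first, because they carry the letters that TEAD proteins recognise. Capitals mark GGAATG, the core of the TEAD site, or CATTCC, its reverse complement, in the 250 bases before the RefSeq start site (GRCh38.p14), written 5′ to 3′ on the strand of the gene. CCN1, TEAD1 and TEAD4 were not matched in the promoter table, and 7 of the 10 genes were.
CCN2 promoter (chr6:131951373-131951622, minus strand): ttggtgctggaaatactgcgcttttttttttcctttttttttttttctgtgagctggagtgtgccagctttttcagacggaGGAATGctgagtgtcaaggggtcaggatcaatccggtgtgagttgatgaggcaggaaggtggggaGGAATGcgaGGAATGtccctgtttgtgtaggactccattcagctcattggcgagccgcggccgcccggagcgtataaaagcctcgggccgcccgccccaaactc
ANKRD1 promoter (chr10:90921088-90921337, minus strand): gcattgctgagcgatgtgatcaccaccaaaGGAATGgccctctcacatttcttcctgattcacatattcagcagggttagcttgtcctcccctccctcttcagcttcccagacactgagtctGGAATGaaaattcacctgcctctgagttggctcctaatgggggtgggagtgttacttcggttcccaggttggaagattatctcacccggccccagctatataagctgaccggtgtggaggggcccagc
AMOTL2 promoter (chr3:134374448-134374697, minus strand): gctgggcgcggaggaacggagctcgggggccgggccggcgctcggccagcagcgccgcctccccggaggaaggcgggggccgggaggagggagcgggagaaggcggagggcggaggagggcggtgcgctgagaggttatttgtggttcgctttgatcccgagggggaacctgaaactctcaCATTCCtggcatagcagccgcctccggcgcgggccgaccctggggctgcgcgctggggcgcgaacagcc

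CCN2 held 3 matches, which began at positions -169, -104 and -95 from the start site, and 2 of them lay inside the peak of both replicates. Only 29 of 35116 RefSeq promoters, or 0.0826%, held at least 3. ANKRD1 held 2 matches, at -220 and -128, both inside the peak of both replicates, and 0.940% of promoters held at least 2. AMOTL2 held 1 match on the opposite strand, which began at -69. Among the coactivators, YAP1 held 1 match at -162, whereas WWTR1, TEAD2 and TEAD3 held none in this stretch. At least 1 match was found in 11.9% of all promoters of this length. The AP-1 letters, TGACTCA or TGAGTCA on either strand, were in none of the 7 promoters and in 4.20% of all promoters. These are matches of letters and not measured binding.

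The second set shows 100 bases to either side of the summit of the 5 distal regions that held both kinds of letters, from the highest to the lowest fold enrichment. Capitals mark GGAATG or CATTCC for TEAD and TGACTCA or TGAGTCA for AP-1, in hg38 coordinates.
YAP1, 99.2 kb upstream (chr11:102011168-102011368, plus strand): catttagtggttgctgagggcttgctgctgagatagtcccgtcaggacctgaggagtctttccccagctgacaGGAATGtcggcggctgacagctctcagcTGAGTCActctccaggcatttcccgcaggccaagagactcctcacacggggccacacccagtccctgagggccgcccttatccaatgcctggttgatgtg
AMOTL2, 53.1 kb upstream (chr3:134427493-134427693, minus strand): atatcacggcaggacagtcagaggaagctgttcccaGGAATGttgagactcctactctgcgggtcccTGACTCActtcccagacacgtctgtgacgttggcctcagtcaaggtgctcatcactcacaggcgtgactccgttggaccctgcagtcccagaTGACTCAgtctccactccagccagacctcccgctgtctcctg
YAP1, 146 kb downstream (chr11:102256343-102256543, plus strand): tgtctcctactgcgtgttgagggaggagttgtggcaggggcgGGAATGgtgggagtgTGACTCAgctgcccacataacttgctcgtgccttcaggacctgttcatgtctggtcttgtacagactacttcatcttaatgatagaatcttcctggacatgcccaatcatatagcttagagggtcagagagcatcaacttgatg
CCN2, 3.50 kb upstream (chr6:131954777-131954977, minus strand): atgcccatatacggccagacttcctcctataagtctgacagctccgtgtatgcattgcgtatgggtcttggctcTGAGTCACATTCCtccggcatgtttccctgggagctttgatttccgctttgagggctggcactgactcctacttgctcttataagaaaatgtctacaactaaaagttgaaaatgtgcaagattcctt
YAP1, 135 kb downstream (chr11:102245080-102245280, plus strand): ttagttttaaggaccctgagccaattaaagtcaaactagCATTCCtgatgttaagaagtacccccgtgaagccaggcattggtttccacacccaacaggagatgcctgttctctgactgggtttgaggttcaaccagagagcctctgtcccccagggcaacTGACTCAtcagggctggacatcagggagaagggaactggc

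The centres of the nearest TEAD and AP-1 letters were 28.5, 31.5, 15.5, 6.5 and 122.5 bp apart, in the order shown. In the region upstream of CCN2 the AP-1 letters ran directly into the TEAD letters without a base between them. Of the 1193 distal regions of the genome with both, 99 (8.30%) had the letters this close or overlapping, which is possible because the AP-1 letters end in the CA with which CATTCC begins. The median distance over the 1193 regions was 44.5 bp, with quartiles of 18.5 and 79.5 bp.

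For each replicate the authors' list gives peaks with a summit and a fold enrichment, which divides the fragments at that summit by the local background after adding 1 to each. Of 28735 and 36162 peaks in replicates 1 and 2, 75 and 91 lay in the 10 windows. The lists hold no read totals, so fragment numbers at the summits were worked out from each peak's fold enrichment and −log10 p. The genome-wide background was 4.77 fragments in replicate 1 and 3.41 in replicate 2, and the weakest listed peaks had 16 and 13 fragments. A place without a peak was therefore below detection at this depth and not shown to be closed. The −log10 p is measured against the local background, so where that was raised a peak needed more fragments to be listed. Values are given for both replicates, and SD is over n = 2.

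In hg38, GENCODE places TEAD1 (ENSG00000187079.20) chr11:12674421-12944737 on the plus strand, TEAD2 (ENSG00000074219.14) chr19:49340595-49362457 on the minus strand, TEAD3 (ENSG00000007866.22) chr6:35473597-35497079 on the minus strand and TEAD4 (ENSG00000197905.10) chr12:2959330-3040676 on the plus strand. The coactivators are YAP1 (ENSG00000137693.14) chr11:102110447-102233424 on the plus strand and WWTR1 (ENSG00000018408.15) chr3:149517235-149736714 on the minus strand. The targets are CCN1 (ENSG00000142871.18) chr1:85580761-85584589 on the plus strand, CCN2 (ENSG00000118523.6) chr6:131948176-131951372 on the minus strand, ANKRD1 (ENSG00000148677.7) chr10:90912096-90921087 on the minus strand and AMOTL2 (ENSG00000114019.15) chr3:134355347-134375479 on the minus strand.

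Of the 10 genes, 8 had a peak within 1 kb of the start site in both replicates, against 52.3% of all protein-coding genes. The exceptions were TEAD2 and TEAD3, whereas both coactivators and all 4 target genes had 1. At TEAD1, which encodes a broadly expressed TEAD protein, the promoter was enriched 6.58-fold in replicate 1 and 9.06-fold in replicate 2 (7.82 ± 1.75). TEAD4 showed 7.86 and 8.10 (7.98 ± 0.167), and a weaker peak 469 bp past the start site, with 3.96, was listed in replicate 1 only. TEAD3 had a promoter peak in replicate 2 only, with a fold enrichment of 5.21 from 22 fragments, a number that 4.54% of the promoters with a peak in both replicates fell below. TEAD2 had none within 1 kb of its canonical start site in either replicate. The nearest region lay 1.33 kb upstream of its start site, at the promoter of its neighbour DKKL1 on the opposite strand, with 6.06 and 7.70. With a promoter window of 3 kb this region is assigned to TEAD2 as well. Counting every annotated start site within 1 kb also gave 9 of the 10 genes a promoter peak in both replicates.

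YAP1 and WWTR1 encode the coactivators that carry the transactivation domains of the complex. The YAP1 promoter was enriched 8.81-fold and 8.68-fold (8.74 ± 0.0893), and a second, weaker region 276 bp past the start site had 3.82 and 3.90. Another YAP1 peak at 648 bp, with 3.60, was listed in replicate 1 only. The WWTR1 promoter showed 7.60 and 8.67 (8.13 ± 0.756), from 48 and 55 fragments. The means of the 2 genes were closer together than the replicates of WWTR1. YAP1 was above 55.7% and 41.0% of all promoter peaks, and WWTR1 above 44.5% and 41.0%, so both stood in the middle range.

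The 4 target promoters fell into separate levels by fold enrichment. ANKRD1 had the highest, with 9.53 and 12.2 (10.9 ± 1.91), and AMOTL2 followed with 8.90 and 7.32 (8.11 ± 1.12). CCN2 had 4.52 and 5.04 (4.78 ± 0.362), and CCN1 the lowest, with 3.93 and 3.25 (3.59 ± 0.482). The values of CCN1 and CCN2 did not overlap with each other or with those of the other 6 promoters. The median over all promoter peaks was 8.14 in replicate 1 and 9.64 in replicate 2. Only 2.25% and 0.0574% of the 10457 promoters with a peak in both replicates had a lower fold enrichment than CCN1, and 9.26% and 5.78% a lower one than CCN2.

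The fragments at the summits gave another order. CCN1 had 55 and 47 fragments and CCN2 49 and 53, beside 54 and 53 at ANKRD1 and 55 and 48 at AMOTL2. All 4 target promoters were thus at or above the median of 47 and 46 fragments over all promoter peaks. What set CCN1 and CCN2 apart was the local background that the ratio divides by. It was 13.3 and 13.8 fragments at CCN1, or 2.78 and 4.04 times the genome-wide value, and 10.1 and 9.72 fragments at CCN2, or 2.11 and 2.85 times. These backgrounds exceeded those of 99.5% and 99.7% of promoters for CCN1 and of 98.1% and 98.3% for CCN2. At ANKRD1 the local background equalled the genome-wide one in both replicates. The fragments were also divided by the genome-wide background, without adding 1, so these ratios are not on the scale of the fold enrichments. CCN1 came to 12.7 ± 1.59, CCN2 to 12.9 ± 3.73, ANKRD1 to 13.4 ± 2.99 and AMOTL2 to 12.8 ± 1.80. All 4 were higher in replicate 2, where the genome-wide background was lower, so each SD includes an offset shared by all genes. The genes are therefore better compared within a replicate. In the same order, the ratios were 11.5, 10.3, 11.3 and 11.5 in replicate 1 and 13.8, 15.5, 15.5 and 14.1 in replicate 2.

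**Figure D1:**
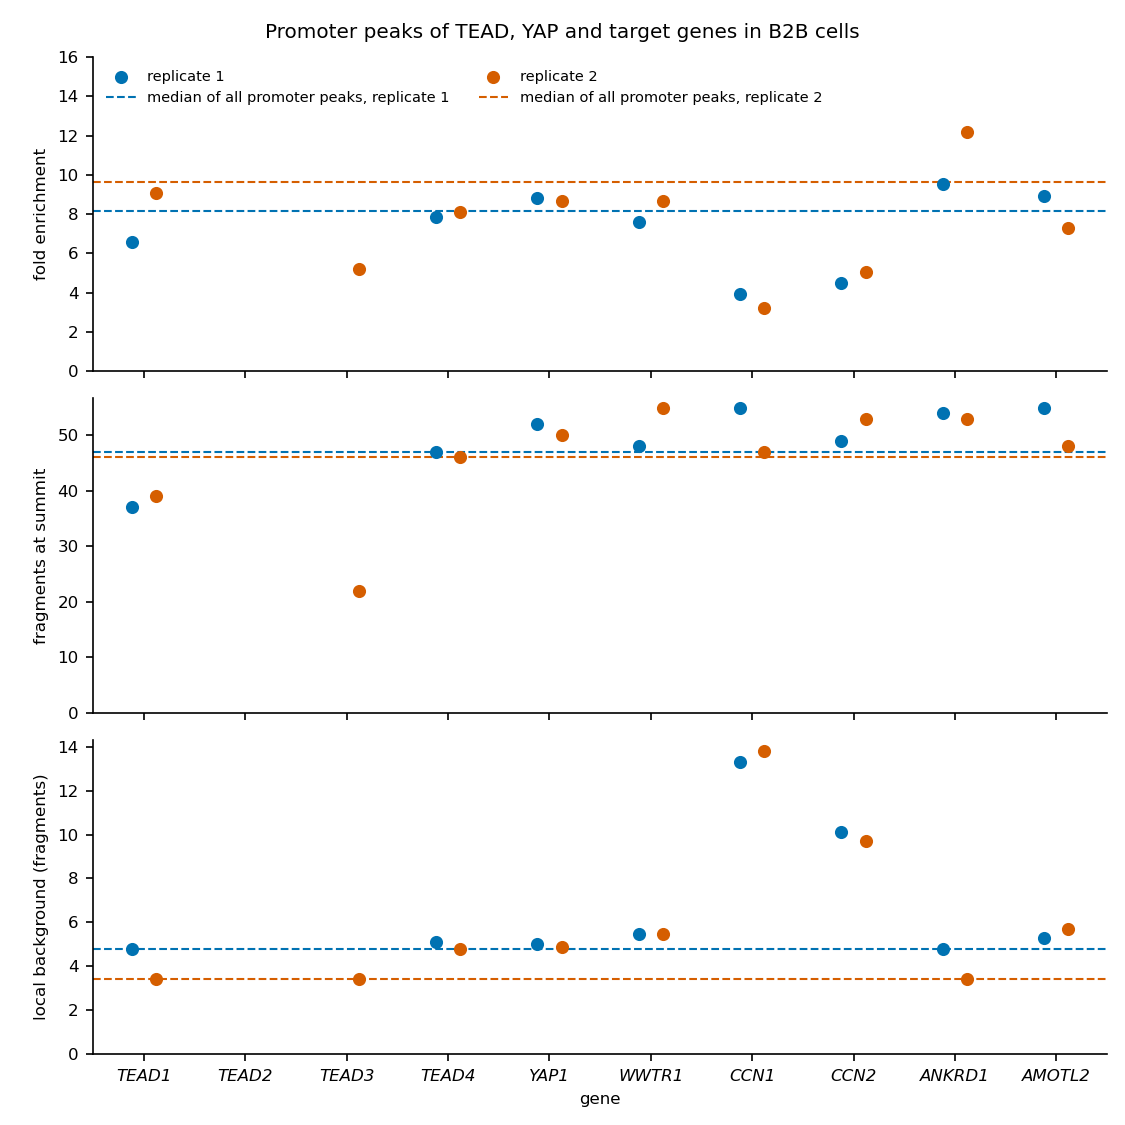
Fold enrichment (top), fragments at the summit (middle) and local background in fragments (bottom) of the promoter peak of each gene, with 1 point per replicate and dashed lines at the medians of all promoter peaks. CCN1 and CCN2 are low in fold enrichment, close to the other target genes in fragments, and far above the medians in local background, and TEAD2 has no point.

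The plot of the promoter peaks shows the 3 quantities gene by gene. Among the 8 promoters with a peak in both replicates, fragments ranged from 37 to 55 in replicate 1 and from 39 to 55 in replicate 2, with TEAD1 at the low end of both. Their median of 50.5 and 49.0 was near that of all promoter peaks. A local background above the genome-wide one was present at 24.6% of all promoter peaks in replicate 1 and at 47.0% in replicate 2.

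**Figure D2:**
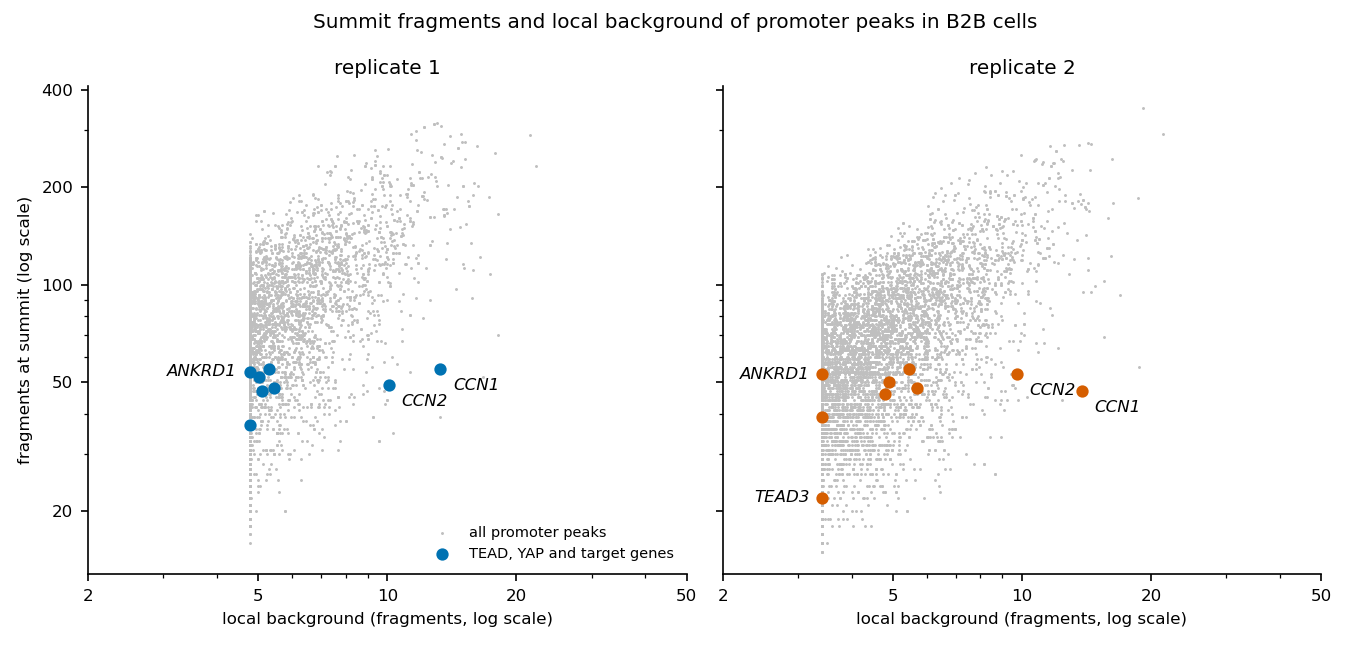
Fragments at the summit against local background in fragments, both on log scales, for all promoter peaks (grey) and for the genes named here (coloured), with 1 panel per replicate. CCN1 and CCN2 lie at the right of the cloud, with 13.3 and 10.1 fragments of local background in replicate 1, at a usual height of 55 and 49 fragments.

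The scatter of fragments against background places CCN1 and CCN2 at the edge of the cloud of promoters in both replicates. The local background was also raised at regions close to the promoter of both genes. Around CCN1 it was 9.95 and 10.1 fragments at a region 3.63 kb upstream, 10.7 and 11.1 at 2.01 kb upstream, within 1 kb of another start site of DDAH1, and 8.55 and 9.29 at a region in an annotated exon 3.66 kb downstream. At CCN2 it was 10.1 and 9.84 fragments at an exonic region 1.30 kb downstream, and 7.65 and 7.04 at 3.50 kb upstream. The local background spans a wider stretch than a peak, so these values describe the surroundings of each gene and not a single site. Its span is not stated, and regions this close may share it with the promoter. They are therefore not separate evidence of a raised background.

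The promoters also differed in CpG content, counted over 500 bp to either side of the start site. ANKRD1 had 8 CpG, whereas the other members had between 56 (TEAD2) and 141 (TEAD4), against a median of 66 over all genes. In the tenth of genes with the fewest CpG, to which ANKRD1 belongs, 42 of 2000 genes, or 2.10%, had a promoter peak in both replicates. CCN1 with 82, CCN2 with 90 and AMOTL2 with 99 CpG fell into groups in which 71.9% to 76.4% of genes had such a peak. TEAD2, which lacked a peak at its canonical start site, belonged to a group where 68.2% had 1, and TEAD3 with 124 CpG to a group where 72.6% did.

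When peaks of both lists were merged wherever they overlapped, the 10 windows held 93 regions. Of these, 65 had a peak in both replicates, 4 in replicate 1 only and 24 in replicate 2 only. Regions in 1 replicate only had median fold enrichments of 3.84 in replicate 1 (3.60 to 5.37) and 5.10 in replicate 2 (4.08 to 9.74). The 65 shared regions comprised 9 at the genes' own promoters, 15 at promoters of neighbouring genes and 41 distal regions, whose summit lay over 1 kb from the canonical start site of every protein-coding gene. Another annotated start site lay within 1 kb of 3 of them, and 38 remained when every annotated start site was counted. Of the 41, 11 lay in the gene itself, 5 in another gene and 25 between genes.

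**Figure D3:**
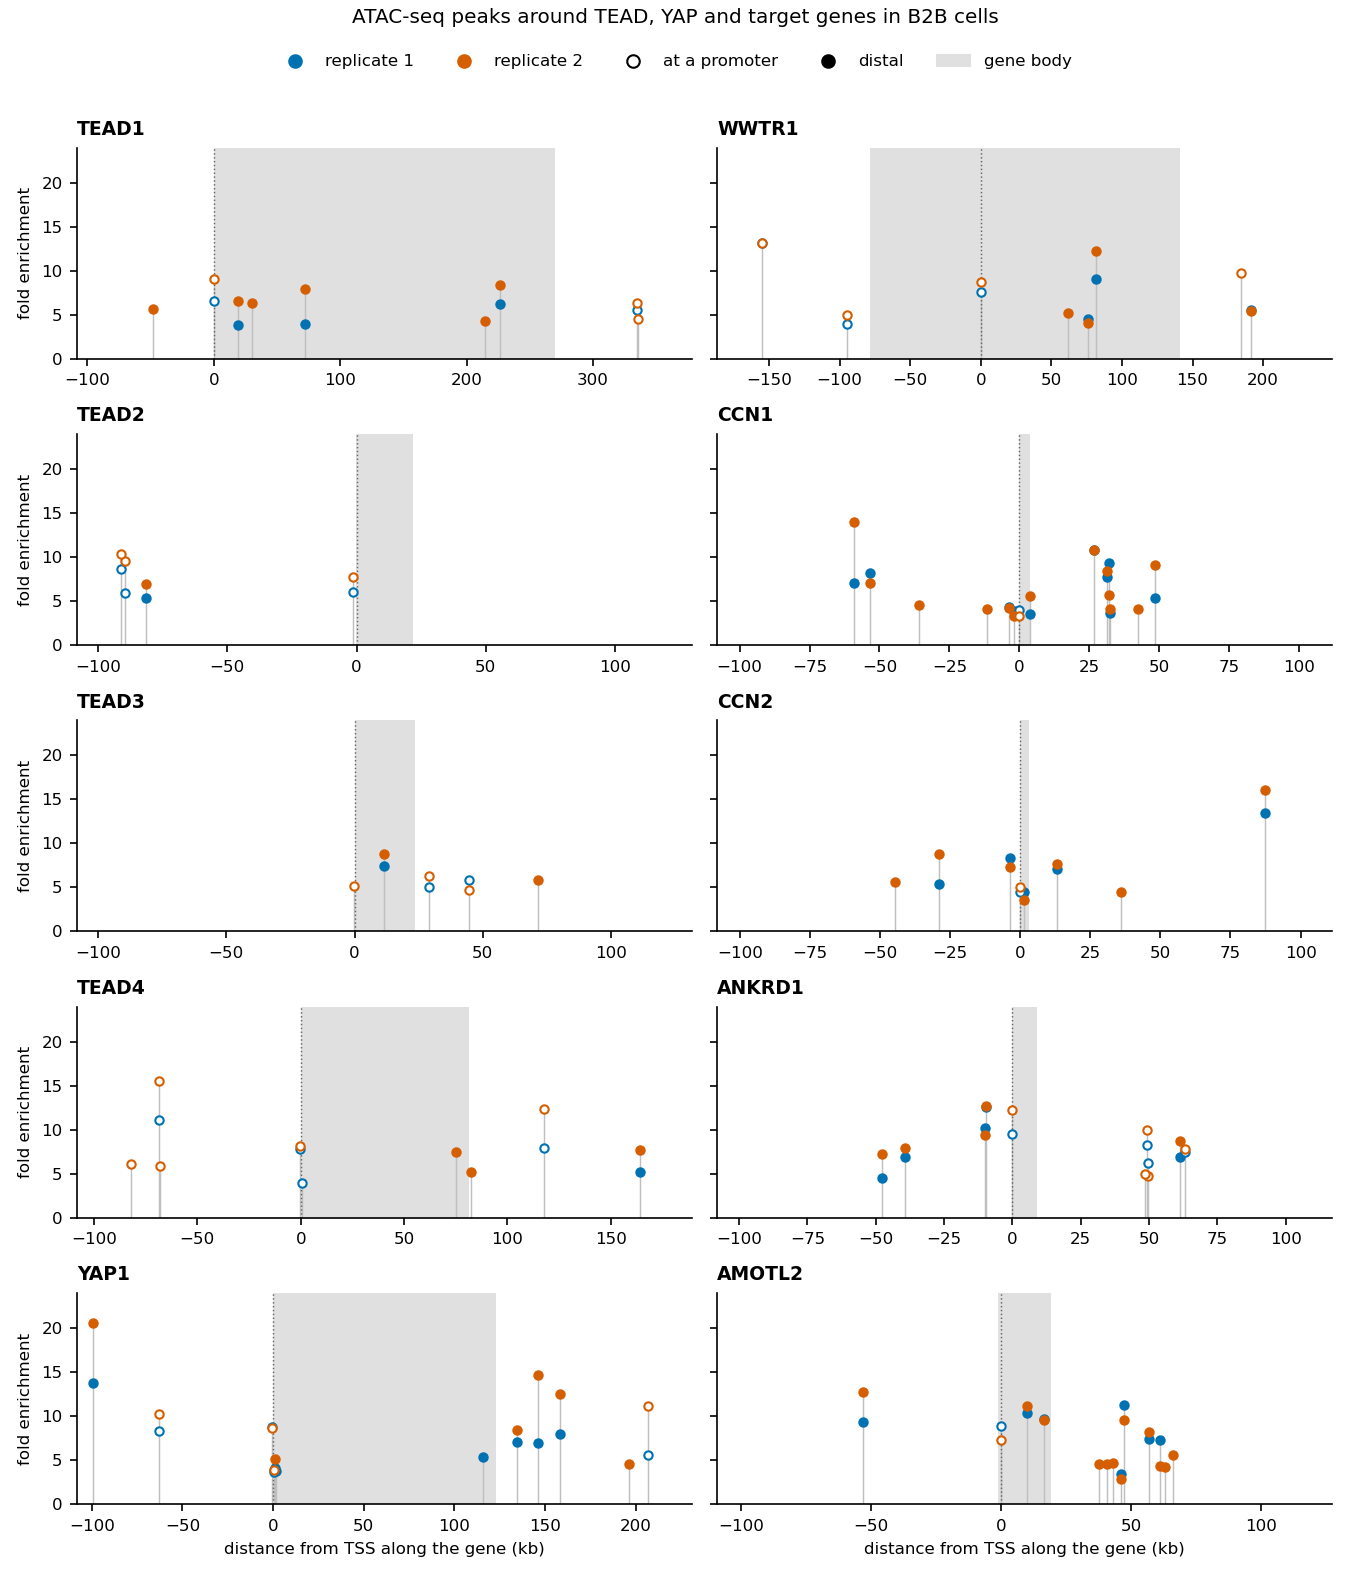
Fold enrichment of every peak in the window of each gene against the distance of the region's summit from the start site in kb, along the direction of the gene. Blue is replicate 1, orange replicate 2, open circles are promoters, filled circles distal regions and grey the gene body. Distal regions crowd around CCN1 and AMOTL2 and are few around TEAD2, TEAD3 and TEAD4.

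The 4 target genes had 27 distal regions in 836 kb of window, or 3.23 per 100 kb. The 6 factor and coactivator genes had 14 in 1939 kb, or 0.722 per 100 kb. The median over all protein-coding genes was 1 distal region per window and 0.474 per 100 kb. These densities hold for flanks of 100 kb. With flanks of 200 kb, CCN2 was the only target gene to gain distal regions, whereas every factor and coactivator gene except YAP1 gained some. The contrast between the groups was thus smaller in the wider windows. The start site nearest to the region was that of the target gene itself for 24 of the 27 distal regions, but that of the factor or coactivator for only 6 of 14. More fragments than the median of 34 over all distal regions were present at 21 of the 27 regions in replicate 1 and 20 in replicate 2. For the factor and coactivator genes this held for 7 of 14 in each replicate.

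Among the TEAD genes, TEAD1 had 3 distal regions, all in its introns, and TEAD2, TEAD3 and TEAD4 had 1 each. These counts depended on the replicates taken. Replicate 2 alone gave 6 at TEAD1, 2 at TEAD3 and 3 at TEAD4, and replicate 1 alone gave 3 at TEAD2 and 2 at TEAD4. The strongest at TEAD1 lay in an intron 226 kb past the start site, with 6.24 and 8.38 (7.31 ± 1.52). An intronic region of TEAD3, 11.4 kb into the gene, had 7.45 and 8.84 (8.14 ± 0.980). In replicate 2 this region was above the promoter peak of the same gene. The distal region of the TEAD4 window lay in an intron of TSPAN9 with 5.20 and 7.70, and that of TEAD2 between genes 81.4 kb upstream with 5.37 and 6.93. At these loci the strongest shared regions were often promoters of neighbours, namely TULP3 at TEAD4 with 11.1 and 15.5, and ALDH16A1 at TEAD2 with 8.66 and 10.4.

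YAP1 had 5 distal regions, a number that 9.96% of all genes reached or passed. One of them had the highest mean fold enrichment of the distal regions in the 10 windows, with 13.7 and 20.6 (17.2 ± 4.90) from 78 and 90 fragments. By fragments, regions at CCN1 and AMOTL2 described below were higher. Its fold enrichment was above that of 95.2% and 98.6% of all distal regions. It lay between genes 99.2 kb upstream, just inside the edge of the window, and the nearest start site was that of CFAP300 at 36.2 kb. The letters of both TEAD and AP-1 were present, as printed above. Past the 3′ end of YAP1, regions at 135, 146 and 158 kb from the start site had 7.10 and 8.38, 6.93 and 14.7, and 7.97 and 12.5. Each fold enrichment was higher in replicate 2, as was the median over all distal regions (6.06 and 7.48). The fragments were 40 and 36, 39 and 64, and 45 and 54. BIRC3 had the nearest start site for all 3. WWTR1 had 3 distal regions. The highest in fold enrichment was an intronic one at 81.7 kb, with 9.01 and 12.2 (10.6 ± 2.27), which lay within 1 kb of another annotated WWTR1 start site. Counting every annotated start site left WWTR1 with 2 distal regions. The promoter of RNF13 was the strongest region of the window with 13.2 in both replicates.

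CCN1 had 10 distal regions, a number that 0.910% of genes reached, and with 4.91 per 100 kb its density was above that of 99.8% of genes. A group of 4 lay 26.6 to 32.5 kb downstream, between genes. The first of them had 10.8 in both replicates (10.8 ± 0.0516), and the second 7.79 and 8.45. With 97 and 98 fragments, the first surpassed 97.3% and 97.7% of all distal regions. The second, with 82 and 90 fragments, surpassed 95.1% and 96.9%. In fold enrichment the same regions surpassed 89.3% and 79.6%, and 71.8% and 61.4%, since the local background was raised here too, at 8.04 and 8.19 and at 9.65 and 9.77 fragments. A region in an intron of DDAH1, 59.1 kb upstream of CCN1, differed between replicates with 7.10 and 14.0 (10.6 ± 4.91).

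CCN2 had 5 distal regions. The strongest lay 87.2 kb downstream in an intron of ENPP1, with 13.5 and 16.1 (14.8 ± 1.82), and it was closer to the start site of ENPP1 than to that of CCN2. The region 3.50 kb upstream, with the adjoining AP-1 and TEAD letters, had 8.32 and 7.34 (7.83 ± 0.695) from 71 and 58 fragments, more than 91.9% and 86.0% of distal regions. Both values were above those of the CCN2 promoter.

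ANKRD1 also had 5 distal regions, all between genes. The strongest was 9.55 kb upstream, with 12.6 and 12.7 (12.7 ± 0.0108), and a neighbour at 10.2 kb had 10.2 and 9.40. In replicate 1 this pair and the promoter were the 3 strongest regions of the locus, whereas in replicate 2 a region at the RPP30 promoter with 9.97 came before the neighbour. AMOTL2 had 7, a number that 3.49% of genes reached. The mean fold enrichment was highest 53.1 kb upstream, with 9.36 and 12.7 (11.0 ± 2.36), and 2 intronic regions at 9.95 and 16.4 kb had 10.4 and 11.1, and 9.64 and 9.53. At 47.3 kb, past the 3′ end, a region had 11.3 and 9.58 (10.4 ± 1.21). In replicate 1 these 3 regions were above the upstream one, so its first place rested on replicate 2. With 84 and 91 fragments, against 53 and 55 at the upstream one, the region at 47.3 kb surpassed 95.4% and 97.0% of distal regions by that number. Another 5 regions, found in replicate 2 only, lay 37.6 to 65.8 kb from the start site on the same side, with fold enrichments of 4.20 to 5.62, and replicate 2 alone gave 13 distal regions.

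**Figure D4:**
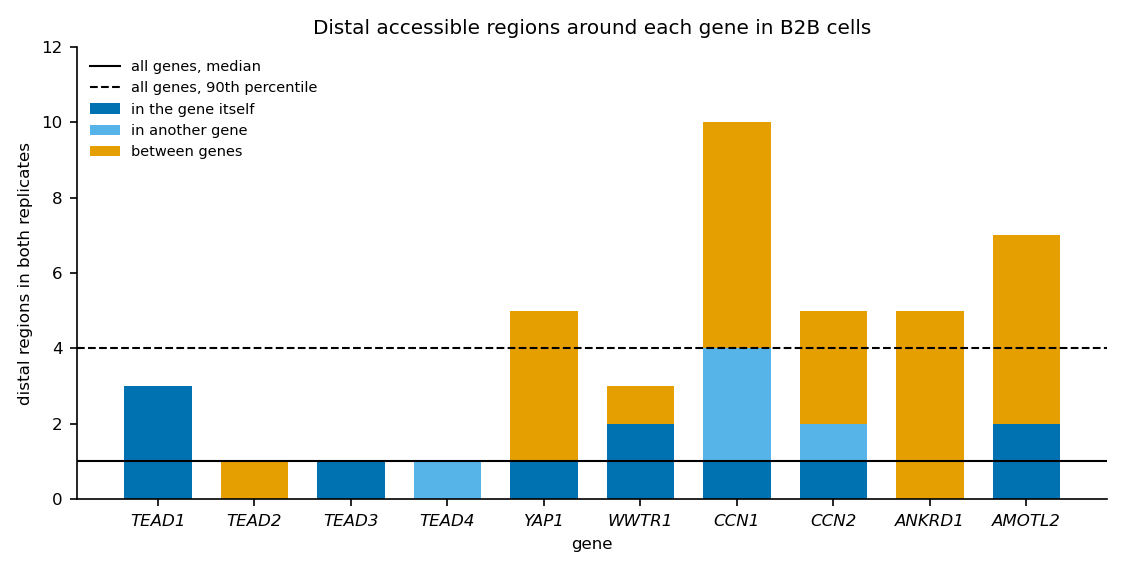
Number of distal regions with a peak in both replicates in the window of each gene, stacked by position, with lines at the median (1) and the 90th percentile (4) of all protein-coding genes. CCN1 with 10 and AMOTL2 with 7 stand highest, and YAP1, CCN2 and ANKRD1 with 5 each are also above the upper line.

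The bar chart of distal regions shows that regions between genes made up most of those at YAP1, CCN1, CCN2, ANKRD1 and AMOTL2. At TEAD1 and TEAD3, by contrast, the distal regions lay in the gene itself, though TEAD3 had only 1. TEAD1 is 270.3 kb long, against 3.20 to 20.1 kb for the target genes. A long gene takes up more of its window, and the positions were not compared per length. The windows of TEAD1 and WWTR1 were the longest, at 470.3 and 419 kb, against 203 to 220.1 kb for the targets.

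Of the 41 distal regions, 15 held the TEAD letters within 100 bp of the summit (36.6%, 95% Wilson interval 23.6 to 51.9), against 25.6% of the 15067 shared distal regions of the genome. The AP-1 letters were found in 11 (26.8%, 15.7 to 41.9), against 32.5%. Both intervals include the genome-wide share, so no difference was detectable with 41 regions. Both kinds of letters were present in 5 of the 41 regions, against 7.92% genome-wide, and neither in 20. Of the 5 regions, 3 lay in the YAP1 window, and no interval was worked out for this count. Without replicate 2 the peaks of replicate 1 alone gave 3 regions with both. In equally long stretches centred 1000 bp away from the summits of all distal regions, on both sides, the TEAD letters were in 11.2% and the AP-1 letters in 3.33%. Across the genome, the TEAD letters were in 24.4% of distal regions with AP-1 letters, in 26.1% of those without and in 6.34% of promoter regions.

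**Figure D5:**
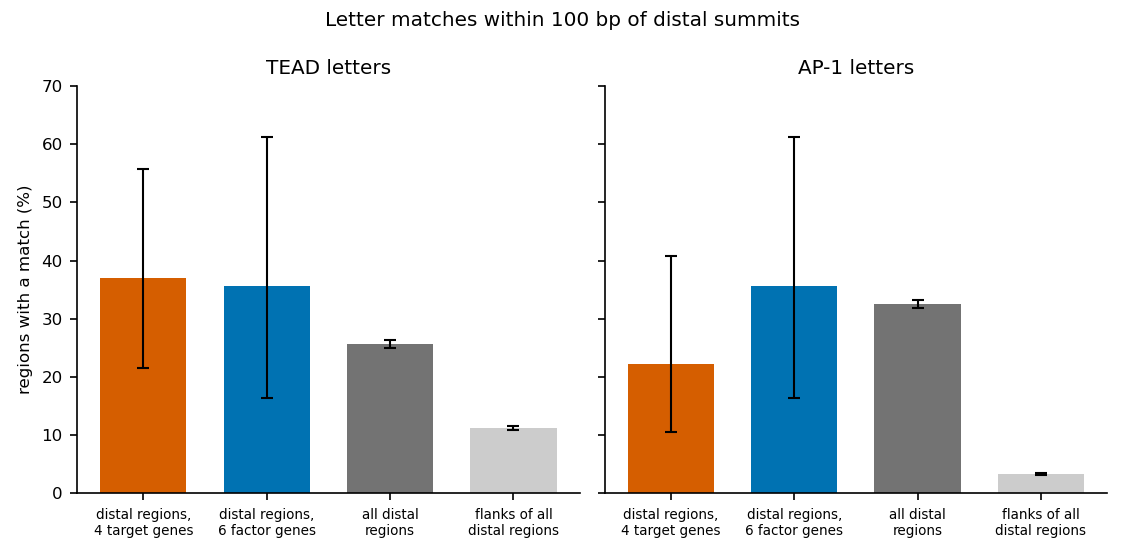
Share of regions with TEAD letters (left) and AP-1 letters (right) within 100 bp of the summit, in percent, for the distal regions of the 4 target genes (n = 27), of the 6 factor and coactivator genes (n = 14), all distal regions and their flanks. Error bars are 95% Wilson intervals, and those of both gene sets include the share over all distal regions.

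The chart of letter shares splits the 41 regions by role. TEAD letters were in 10 of the 27 target regions (37.0%, 21.5 to 55.8) and in 5 of the 14 at factors and coactivators (35.7%, 16.3 to 61.2). AP-1 letters were in 6 of 27 (22.2%, 10.6 to 40.8) and 5 of 14 (35.7%, 16.3 to 61.2). By locus, CCN1 had TEAD letters in 5 of its 10 distal regions and AP-1 letters in 1. YAP1 had both in 3 of 5. The region of AMOTL2 at 61.0 kb held 3 TEAD matches, the most of any distal region described here, with 7.26 and 4.31. These intervals cover counting error only.

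Upstream of YAP and TAZ, promoter peaks were counted at the Hippo genes. Of 37 genes of the kinase core, its upstream regulators, the STRIPAK phosphatase complex and YAP or TEAD cofactors, 32 (86.5%) had a promoter peak in both replicates, against 52.3% of all protein-coding genes and 72.6% of the tenth with the most promoter CpG. The kinase core had 6 of 7, the upstream regulators 15 of 17, STRIPAK 6 of 7 and the cofactors 5 of 6. The highest were STK3, which encodes the MST2 kinase, with 21.2 ± 1.53, STRN, a striatin subunit of STRIPAK, with 18.9 ± 2.22, and AMOTL1, an angiomotin, with 13.6 ± 1.45. No promoter peak in either replicate was found for RASSF1, MAP4K1, STRN4 and VGLL1.

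Of 18 further genes of a YAP target signature, 15 (83.3%) had a promoter peak in both replicates. The shares beside it are the same 52.3% of all genes and 72.6% of the tenth with the most promoter CpG. The highest were NT5E with 12.3 ± 0.945, PTPN14 with 10.8 ± 1.24 and GADD45A with 10.6 ± 0.986, and MYOF and FOXF2 had none in either replicate. LATS2 and PTPN14 are also among the 37. The signature genes had a median of 5.50 distal regions per window, against 1 for all genes and 5 or more at each of the 4 target genes above. The windows of long genes are longer, so the medians are not per length.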

How the data were processed

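The authors mapped ATAC-seq reads of 2 B2B replicates to hg38 with Bowtie2 2.4.4, dropped duplicate reads with code of their own, and ran MACS2 2.2.7.1 on each replicate, keeping all remaining reads. The submitters' processing notes also name SAMtools 1.13. How cut positions were shifted is not given in the sources used here. The deposited lists give, for each peak, a fold enrichment (a linear ratio), a −log10 p, a −log10 q and a score, and the authors' score was not used. Depth is not stated, so whole fragments were solved from the fold enrichment and −log10 p, which met the −log10 p within 0.01 for 99.7% and 99.8% of peaks. The call options are not given in full, so counting in whole fragments is an assumption. All 28735 and 36162 peaks on chromosomes 1 to 22, X and Y ended inside the reference chromosomes.

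Peaks were merged where they overlapped by at least 1 bp. Promoters were 1 kb to either side of the start site of the canonical transcript in GENCODE 44. Distal regions had the summit of their higher peak over 1 kb from every such start site. Letters were searched on both strands within 100 bp of that summit, and promoter sequences came from RefSeq, at the start site that GENCODE gives as canonical. Intervals are 95% Wilson intervals. The solution, merging and letter search were tested on simulated data. Scripts ran in Python 3.11.15 (scipy 1.17.1, numpy 2.4.6, matplotlib 3.10.9, pandas 2.3.3).

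The members, lists and named regions were chosen with earlier results of these data known. Every member was described, with each promoter peak, the strongest distal region, the regions with both kinds of letters, and of each list the 3 highest genes and those without a peak. Other distal regions were named after their values were seen. Settings were varied one at a time: a stricter −log10 q limit (5), list lengths made equal by rank, 50% overlap, single replicates, promoters of 500 bp or 3 kb, every annotated start site, flanks of 50 or 200 kb, and other spellings and windows for the letters.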

Additional observations from a re-analysis of the deposited data

How the results depend on the processing

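Over 11 results and 14 alternative settings, 94 values were recomputed, of which 87 stayed within the replicate spread, the interval or 1.5 times the main count, 7 moved and 0 reversed. The share of window peaks of replicate 1 found in replicate 2 was 94.7%, and fell to 85.3% with equal numbers of peaks and to 73.3% when 50% of each peak had to overlap. The number of distal regions with both kinds of letters was 5, and 3 to 6 with each replicate alone (3 without replicate 2), 3 with flanks of 50 kb and 2 with letters within 50 bp of the summit. The share with TEAD letters was 36.6%, and 22.0% within 50 bp or 53.7% over the whole region, since fewer or more bases were searched. By locus, 82 of 100 counts stayed within 1.5 times and 18 moved. Replicate 2 alone gave 13 distal regions at AMOTL2 in place of 7, 6 at TEAD1 in place of 3, and 2 at TEAD3 and 3 at TEAD4 in place of 1. Replicate 1 alone gave 3 at TEAD2 and 2 at TEAD4. With 50% overlap, TEAD2 and TEAD4 had 0 and WWTR1 had 1 in place of 3. With flanks of 50 kb, TEAD2 and TEAD4 had 0. With flanks of 200 kb, TEAD1 and WWTR1 had 6 each, TEAD2 and TEAD4 3 each, TEAD3 4 and CCN2 8, while YAP1, CCN1, ANKRD1 and AMOTL2 kept their counts. Fragments at the weakest listed peaks, 16 and 13, limit what could be seen, and the limit is higher where the local background was raised. No paired analysis was possible because the replicates form a single group and no test was run.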
